A study of Saccharomyces cerevisiae with 70 samples.

Results

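The genes described are 37 budding yeast genes of the cell wall and of the pathway that guards its integrity. They were chosen by gene symbol from the probe annotation of the 3 array designs, and the probes of a gene were averaged. All 37 were found on each design, among 5553 named genes in peroxide I and in menadione I and 5577 in the second series. They divide into 12 signalling genes and 25 genes of wall synthesis, wall remodelling and wall proteins.

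The yeast wall is a mesh of glucan and a little chitin, covered by heavily glycosylated mannoproteins. Stretch or damage is sensed by plasma membrane proteins of the Wsc and Mid families, which activate the GTPase Rho1 and, through it, protein kinase C and a MAP kinase cascade ending in Slt2. Slt2 activates the transcription factor Rlm1, whose known targets include many wall protein genes. Wall genes also follow the cell cycle, because the wall is remodelled at bud growth and at cell separation.

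RNA from Saccharomyces cerevisiae was followed on 70 two-colour arrays in 4 time courses, each of them 1 culture. Cy5 carried the sampled culture and Cy3 an asynchronous reference culture. Peroxide I (0.24 mM hydrogen peroxide, 23 arrays at 21 times from 0 to 275 min) held cells synchronised with alpha factor, the mating pheromone that arrests cells in G1. Menadione I (2 mM menadione, a quinone that makes superoxide inside the cell) had 14 arrays from 0 to 210 min, and its labels call the Cy5 sample only an experiment at a given optical density. The second series used strain DBY8724, timed from release out of G1 arrest, with no dose given in the labels. Of its arrays, 17 followed hydrogen peroxide over 180 min (peroxide II) and 16 followed menadione over 140 min (menadione II). The labels name no strain for peroxide I and menadione I. Nothing in the labels gives the time at which an oxidant was added, and no untreated course was analysed here. A change over time therefore holds progress through the cycle together with any response to the oxidant, and these cannot be told apart.

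Values are log ratios to the reference, taken as log2 and centred on the median gene of each array. The base and the direction are not stated in the sources used here. The direction was read from the mating pheromone genes, whose mean level at 0 min was positive in all 4 courses (0.92 in peroxide I, 1.60 in peroxide II, 1.25 in menadione I and 1.61 in menadione II). One pair of peroxide I arrays correlated at -0.303 over genes, and the stated dyes were kept as the direction. Each window (22 to 50 min, 51 to 90 min, after 90 min) was tested with limma against the arrays labelled 0 to 21 min in its own course. A gene was said to rise or fall when its p-value, adjusted by Benjamini-Hochberg over all genes tested, was below 0.05. Changes are log2 differences ± SE, and levels are log2 ratios. The arrays of a window stand in for replicates, so p-values measure the spread between times within a culture and not between cultures. A tested difference between agents is one between peroxide II and menadione II, each of them 1 culture. Agent and culture cannot be told apart in it. In whole cultures, a smaller share of cells at a cycle stage and less mRNA per cell cannot be told apart.

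Among the wall genes most calls in peroxide I, peroxide II and menadione II were falls, the PST1 rise was the only call of menadione I, and of the signalling genes SLT2 and BCK1 alone were called. In peroxide II at 51 to 90 min 5 of the 25 wall genes fell (SCW10, TIP1, CWP2, FKS1 and CHS3) and 2 rose (EXG1 and YPS1), while none of the 12 signalling genes changed. That is 7 of 37, against 14% of all 5519 genes tested. Of all genes 8.99% rose and 5.04% fell in that window. The median change was -0.36 over the wall genes, -0.09 over the signalling genes and 0.05 over all genes. At 22 to 50 min of the same course SLT2 rose and TIP1 fell, 2 of 37 against 3.94% of 5501 genes, of which 2.76% rose and 1.18% fell. After 90 min limma called no member, against 0.634% of 5520 genes, with 8 of the 37 at an unadjusted p under 0.05, against 11.4% of genes.

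Menadione II showed fewer calls. At 22 to 50 min limma called no member and 0% of 5538 genes, with 7 members and 8.02% of genes at an unadjusted p under 0.05. At 51 to 90 min SCW10 and TIP1 fell, 2 of 37 against 5.04% of 5537 genes (2.87% fell). After 90 min BCK1 fell, 1 of 37 against 2.89% of 5538 genes (1.68% fell). The median change of the wall genes at 51 to 90 min was -0.38, and that of the signalling genes was -0.24.

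In peroxide I TIP1 fell at 22 to 50 min, 1 of 37 against 0.775% of 5548 genes (0.27% fell). At 51 to 90 min SCW10, CRH1 and TIP1 fell, 3 of 37 against 15.3% of 5551 genes, of which 8.72% were falls. The wall genes had a median of -0.51 in that window and the signalling genes one of 0.07. After 90 min no member was called by limma, against 0.108% of genes, with 6 members and 7.62% of genes at an unadjusted p under 0.05. In menadione I limma called no gene at 22 to 50 min, which is 0% of 5498, with 3 members and 3.16% of genes at an unadjusted p under 0.05. PST1 rose at 51 to 90 min, 1 of 37 against 1.91% of 5552 genes (1.22% rose), and again after 90 min, against 1.31% (1.1% rose). The wall gene median at 51 to 90 min of menadione I was -0.37 and the signalling median 0.01. The shares of the 37 genes called, from 2.70% to 18.9% where any was called, lay on either side of the shares of all genes, so the counts alone say nothing particular of this list.

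**Figure D1:**
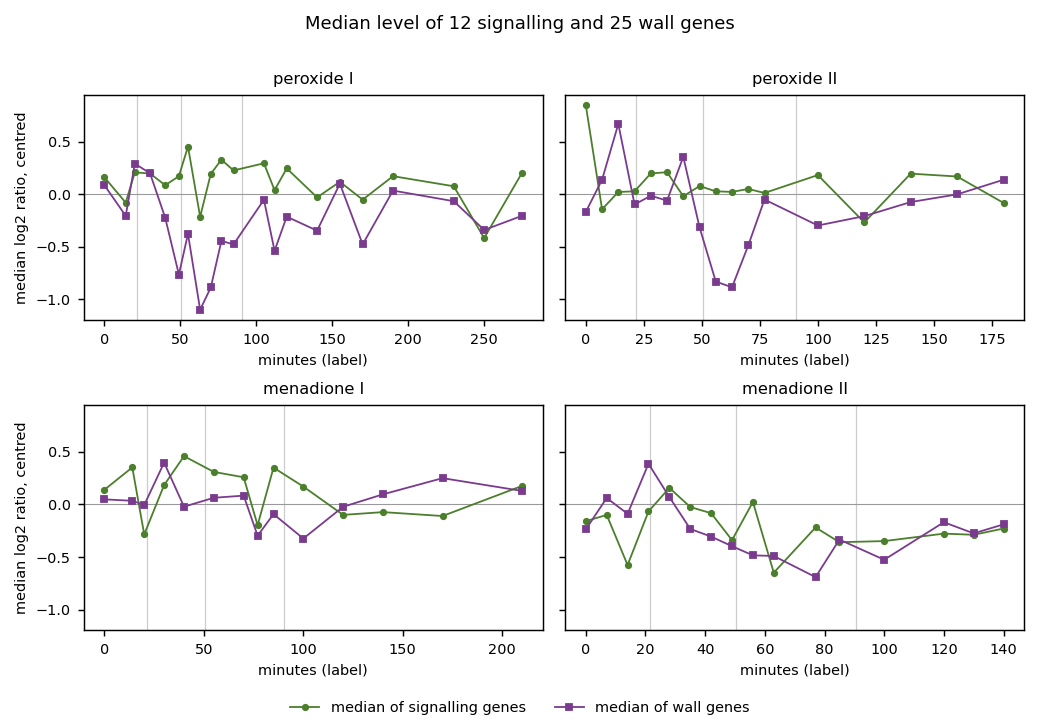
Median level (log2 ratio, centred) of the 12 signalling genes (circles) and the 25 wall genes (squares) on each array, by labelled minute, in the 4 courses; vertical lines mark the ends of the windows. The wall median reached -1.10 at 63 min of peroxide I and -0.88 at 63 min of peroxide II, where the signalling median was -0.21 and 0.02.

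The median level of the wall genes dipped in both peroxide courses. In peroxide I it was 0.20 at 30 min, -0.22 at 40 min, -0.76 at 49 min, -0.38 at 55 min, -1.10 at 63 min, -0.89 at 70 min, -0.44 at 77 min and -0.48 at 85 min, and from 105 min on it ran between -0.54 and 0.10. In peroxide II it was 0.36 at 42 min, -0.31 at 49 min, -0.83 at 56 min, -0.88 at 63 min, -0.49 at 70 min and -0.05 at 77 min. The peroxide I value at 49 min comes from an array labelled a redo, with no first array of that minute among the samples. The peroxide I value at 63 min comes from the mean of repeated arrays that correlated at 0.407 over genes, with a median difference of 0.918 over 36 of the members. The signalling median stayed between -0.42 and 0.45 in peroxide I, and after 0 min of peroxide II (0.85) it stayed between -0.27 and 0.21. In menadione I the wall median stayed within a narrower range, from -0.32 at 100 min to 0.40 at 30 min. Menadione II lay between, with a slow drop from 0.39 at 21 min to -0.69 at 77 min. The signalling median ran from -0.28 at 20 min to 0.46 at 40 min in menadione I. In menadione II it ran from -0.65 at 63 min, below the wall median of -0.49 there, to 0.16 at 28 min.

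**Figure D2:**
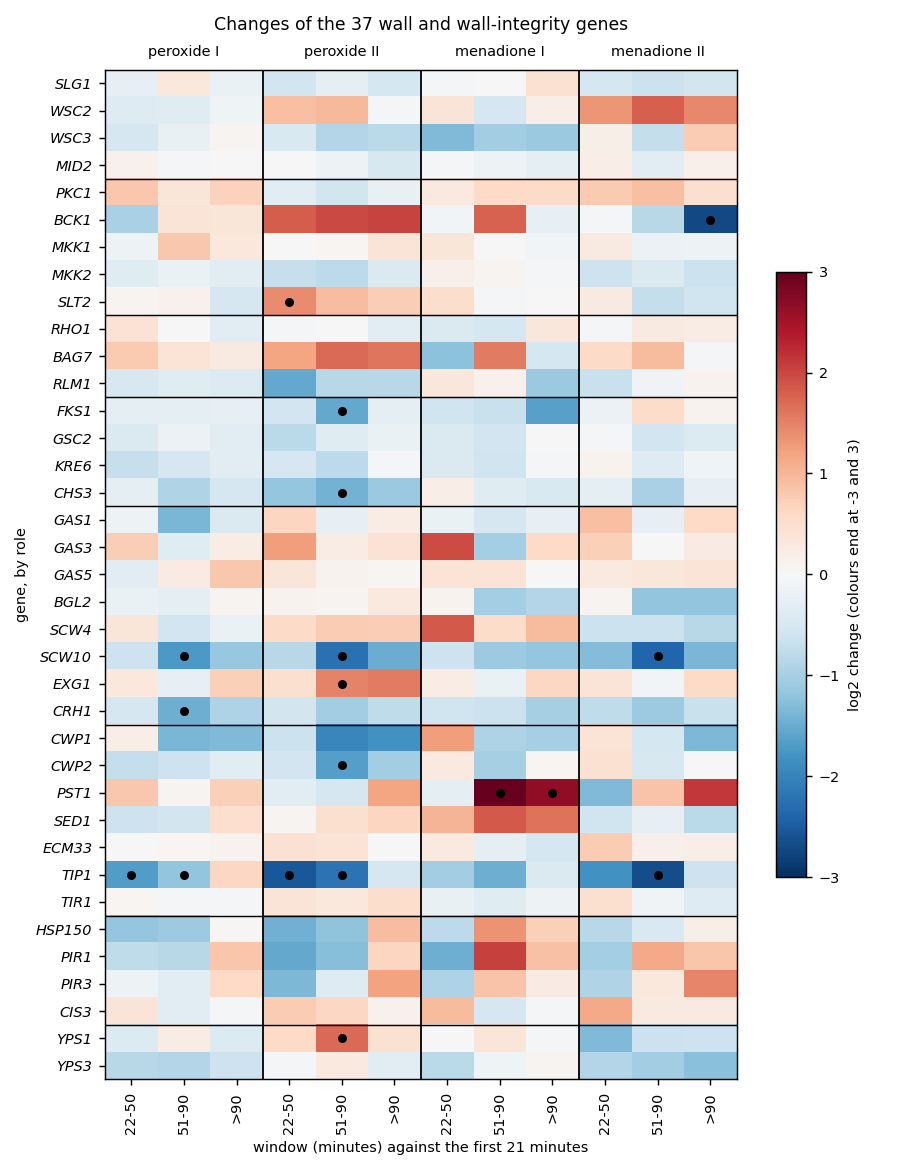
Change (log2 difference from the first 21 min, colour) of the 37 genes, by role from sensors at the top to yapsins at the bottom, in 3 windows of each course; dots mark genes below an adjusted p of 0.05 in limma. Most dots are on wall genes, which are 25 of the 37, with TIP1 marked in 3 courses and SCW10 in 3.

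Of the 4 membrane sensors, SLG1 (also known as WSC1), WSC2, WSC3 and MID2, none passed the test in any of the 12 window comparisons. Their changes ran from -1.33 (WSC3 at 22 to 50 min of menadione I) to 1.79 (WSC2 at 51 to 90 min of menadione II, ± 0.57, adjusted p = 0.0607). The baseline of that WSC2 value holds its lowest level of the course, -4.02 at 14 min. MID2 moved little, between -0.48 and 0.19.

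RHO1 (YPR165W), the GTPase that activates protein kinase C and is also a subunit of glucan synthase, was among the flattest genes of the list. Its levels ran from -1.14 at 100 min to 0.22 at 0 min in peroxide II and from -0.85 at 170 min to 0.80 at 55 min in peroxide I. In menadione II they ran from -1.26 at 14 min to 0.58 at 56 min, and in menadione I from -1.60 at 30 min to 0.18 at 210 min. Its SD over time stood at percentile 3.27 of all genes in peroxide II, 9.20 in menadione II, 19.2 in menadione I and 48.4 in peroxide I. No RHO1 change passed the test, the values lying between -0.53 and 0.44. BAG7, which encodes a GTPase-activating protein for Rho1, was more variable, with an SD over time between percentiles 67.7 and 98.8, and had a value on 12 of 14 menadione I arrays and 29 of 33 arrays of the second series. It reached 5.18 at 56 min of peroxide II and 3.91 at 77 min of menadione I, and no window passed the test (highest change 1.70 ± 0.80, adjusted p = 0.16, at 51 to 90 min of peroxide II).

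PKC1, the protein kinase C at the head of the cascade, stayed between -0.54 and 0.89 in the window comparisons without a call. Its change at 51 to 90 min was -0.54 in peroxide II and 0.89 in menadione II, and the difference between the courses, -1.44 ± 0.44, had an adjusted p of 0.104. MKK1 and MKK2, the paired MAP kinase kinases, ran from -0.17 to 0.81 and from -0.79 to 0.15, also without a call.

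SLT2 (YHR030C), the MAP kinase at the end of the cascade, rose early in peroxide II. Its levels at 0, 7, 14 and 21 min were 0.50, -0.71, -0.95 and -1.02, and at 28, 35, 42 and 49 min they were 0.15, 1.13, 1.43 and 0.81. The 0 min array was the highest of the early ones and lay above the 28 min array, so the groups overlapped by that pair alone. The change was 1.43 ± 0.40 (limma, adjusted p = 0.0384, 4 arrays against 4). It was 0.93 ± 0.40 (adjusted p = 0.116) at 51 to 90 min and 0.73 ± 0.38 (adjusted p = 0.477) after 90 min. The call held in 5 of 16 alternatives. It was lost, among others, with scan day as a covariate (1.20, adjusted p = 0.0949), on the first scan day alone (1.23, adjusted p = 0.139) and on leaving out the 7, 14, 21, 35, 42 or 49 min array (1.24 to 1.45).

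Elsewhere SLT2 did not pass the test. In menadione II its levels at 0, 7, 14 and 21 min were 1.25, 0.20, -0.49 and -0.27, and at 28, 35, 42 and 49 min they were 0.17, 1.04, 0.34 and 0.24, a change of 0.27 ± 0.40 (adjusted p = 0.901). The early and later arrays overlapped there. From 56 min on, 7 of the 8 menadione II arrays were below 0. The difference between the agents was 1.15 ± 0.56 (adjusted p = 0.464) at 22 to 50 min and 1.64 ± 0.56 (adjusted p = 0.15) at 51 to 90 min. In peroxide I SLT2 was highest at 55 min (1.56) and lowest at 250 min (-0.46), and in menadione I it was highest at 40 min (1.27) and lowest at 100 min (-0.38).

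BCK1 (YJL095W), the MAP kinase kinase kinase, gave the only difference between peroxide II and menadione II that passed the test. In menadione II its levels at 0, 7, 14 and 21 min were -2.60, -0.84, -0.58 and -0.94, and after 90 min it was measured on 2 arrays alone, at -4.22 (120 min) and -3.66 (140 min). Both late values lay below every early one, and BCK1 fell by 2.70 ± 0.75 (adjusted p = 0.0471). Without the 7, 14, 21, 100 or 130 min array the change was -2.70 to -2.48 and did not pass (adjusted p from 0.0604 to 0.109). In peroxide II the baseline held 2 values, -2.33 at 7 min and -2.56 at 14 min, against -0.59, -0.62, -1.37, 0.48 and 0.02 at 100 to 180 min. The groups did not overlap, and the change was 2.03 ± 0.72 (adjusted p = 0.226).

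The difference between those BCK1 changes was 4.73 ± 1.04 (adjusted p = 0.0293), 1 of 37 members against 1.09% of 5519 genes (0.906% higher in peroxide II). At 22 to 50 min limma called no member for the difference and 0% of 5500 genes, with 3 members and 10.7% of genes at an unadjusted p under 0.05. At 51 to 90 min it called no member, against 0.145% of 5517 genes, with 10 members and 14.8% of genes at an unadjusted p under 0.05. The BCK1 difference did not pass with scan day as a covariate (4.45, adjusted p = 0.081), with arrays paired by shared minute as a replicate block (4.68, adjusted p = 0.125), or without the 14 min array of menadione II (4.51, adjusted p = 0.0645) or the 140 min array of peroxide II (4.97, adjusted p = 0.0543). Without the 120 or 140 min array of menadione II, or the 7 or 14 min array of peroxide II, too few BCK1 values were left to fit. BCK1 had a value on 27 of the 33 arrays of that design, and on the menadione I design its probes differed by a median SD of 2.53. In that course it stood at 4.06 at 77 min and at -1.09 at 14 min, and in peroxide I it ran from -3.08 at 49 min to 0.36 at 230 min.

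RLM1 (YPL089C), the transcription factor downstream of Slt2, never passed the test. In peroxide II its levels at 0, 7 and 21 min were 1.79, -0.01 and 1.01, and at 28, 35 and 49 min they were -0.13, -0.26 and -1.42. Every later array lay below every early one, and the change was -1.53 ± 0.54 (adjusted p = 0.102). It stood at 0.86, -0.50, -0.49 and 0.56 at 56 to 77 min, a change of -0.82 ± 0.51 (adjusted p = 0.296). After 90 min of menadione I it stood at 1.19 at 100 min and between -1.23 and -0.47 from 120 min on, a change of -1.11 ± 0.52 (adjusted p = 0.352). In peroxide I it ran from -0.61 at 170 min to 1.26 at 0 min, and in menadione II from -0.20 at 49 min to 1.56 at 120 min.

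**Figure D3:**
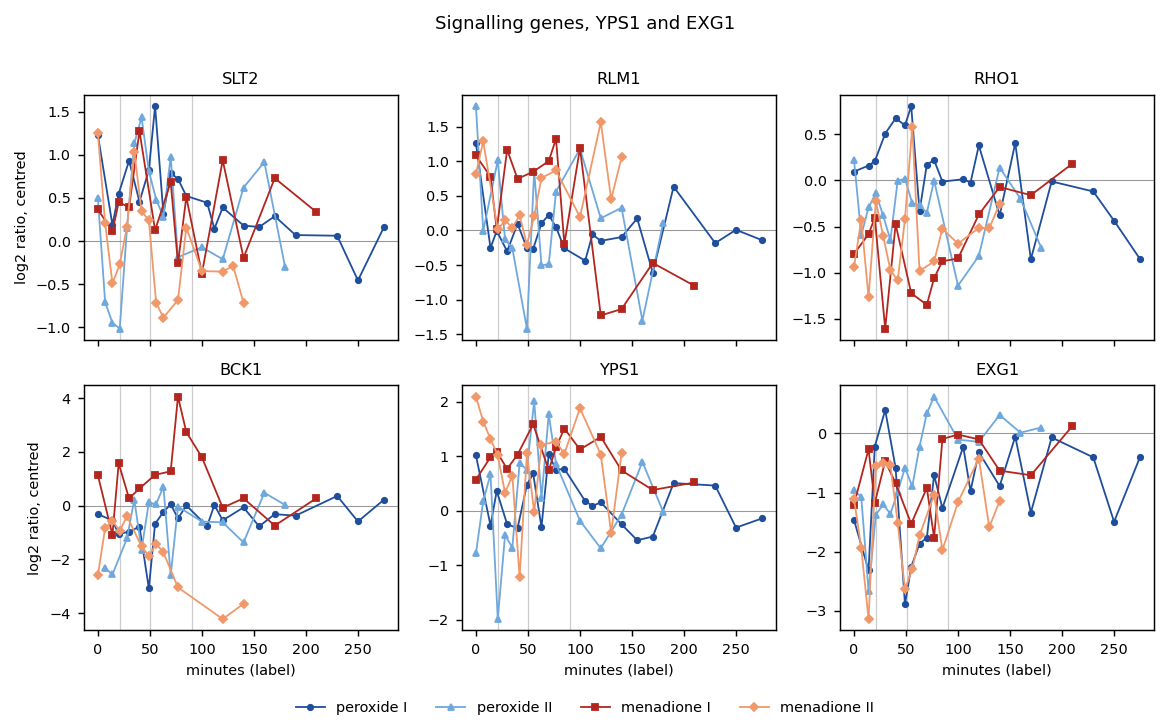
Levels (log2 ratio, centred) of SLT2, RLM1, RHO1, BCK1, YPS1 and EXG1 by labelled minute in the 4 courses; gaps are missing values and vertical lines mark the ends of the windows. SLT2 climbed from -1.02 at 21 min to 1.43 at 42 min of peroxide II, and BCK1 of menadione II dropped to -4.22 at 120 min.

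The genes of glucan and chitin synthesis had negative median changes at 51 to 90 min in each course. FKS1 (YLR342W) and GSC2 (YGR032W, also known as FKS2) encode the alternative catalytic subunits of glucan synthase, KRE6 a protein of the synthesis of the branched glucan, and CHS3 the chitin synthase that makes most of the chitin of the wall. Their changes had a median of -1.10 at 51 to 90 min of peroxide II, -0.47 in menadione II, -0.41 in peroxide I and -0.60 in menadione I.

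FKS1 in peroxide II stood at -0.17, 0.41, 2.63 and 0.19 at 0, 7, 14 and 21 min, and at -1.03, -1.13, -1.37 and 0.42 at 56, 63, 70 and 77 min. The 77 min array lay within the early range and the other 3 lay below it. FKS1 fell by 1.54 ± 0.53 (adjusted p = 0.0489), and without the 14 min array the change was -0.92 (adjusted p = 0.249). With scan day as a covariate it was -0.87 (adjusted p = 0.443), and on the first scan day alone -0.90 (adjusted p = 0.358). It did not pass without the 7, 21, 56, 63 or 70 min array either (adjusted p from 0.0524 to 0.129). The call held in 5 of 15 alternatives. In menadione II the change was 0.56 ± 0.57 (adjusted p = 0.647), and the difference between agents, -2.10 ± 0.78, had an adjusted p of 0.193. FKS1 in menadione I was highest at 20 min (4.42) and 170 min (3.48), and lowest at 140 min (-0.29). In peroxide I it was nearly flat, from -0.75 at 275 min to 0.23 at 20 min.

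GSC2 did not pass the test in any window. It ran from -2.20 at 28 min to 0.87 at 14 min in peroxide II and from -2.32 at 77 min to -0.50 at 28 min in menadione II. In peroxide I it ran from -0.80 at 275 min to 0.26 at 0 min, and in menadione I from -0.64 at 55 min to 0.74 at 140 min. Its largest change was -0.81 ± 0.39 (adjusted p = 0.245), at 22 to 50 min of peroxide II.

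CHS3 (YBR023C) stood at 0.43, 0.24, 0.05 and 0.79 in the first 21 min of peroxide II and at -1.30, -1.29, -1.41 and -0.17 at 56 to 77 min. The groups did not overlap, and CHS3 fell by 1.42 ± 0.41 (adjusted p = 0.0182). In the same window its change was -0.98 in menadione II (adjusted p = 0.166), -0.89 in peroxide I (adjusted p = 0.0671) and -0.37 in menadione I (adjusted p = 0.789). The peroxide II call did not hold with scan day as a covariate (-1.12, adjusted p = 0.171), on the first scan day alone (-1.38, adjusted p = 0.0774) or without the 21, 56, 63 or 70 min array (-1.33 to -1.28). CHS3 was outside the rule for array-by-array values and was added after its values were seen. KRE6 changes lay between -0.78 and 0.10, with no call.

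SCW10 (YMR305C), which encodes a glucanase-like soluble wall protein, fell in 3 courses. In peroxide II its levels at 0, 7, 14 and 21 min were 1.51, 1.56, 0.39 and -0.19, and at 56, 63, 70 and 77 min they were -1.85, -1.89, -0.34 and -1.61. All later arrays lay below all early ones, and the change was -2.24 ± 0.46 (adjusted p = 0.00158). In menadione II the early levels were 1.44, 0.36, 0.51 and 1.56, and those at 56, 63, 77 and 85 min were -1.51, -1.75, -0.32 and -2.08.

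The menadione II groups did not overlap either, and SCW10 changed by -2.38 ± 0.46 (adjusted p = 0.00292). In peroxide I it stood at 0.69, -0.01 and 1.06 at 0, 14 and 20 min and at -0.93, -1.45, -1.44, -1.14 and -0.74 at 55 to 85 min, again without overlap, for a change of -1.72 ± 0.47 (adjusted p = 0.0148). That call did not hold without the 0 min array (-1.67, adjusted p = 0.0525) or the 20 min pair (-1.48, adjusted p = 0.0892), while both calls of the second series held in every alternative run (15 and 13). In menadione I the levels 0.07, 1.31 and 0.52 overlapped with -0.54, -0.93, 0.66 and -1.05 at 55 to 85 min through the 77 min array, and the change was -1.10 (adjusted p = 0.365).

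CRH1 (YGR189C), an enzyme that links chitin to glucan, fell in peroxide I. It stood at 0.37, 0.48 and 1.27 at 0, 14 and 20 min and at -0.94, -1.15, -0.93, -0.34 and -0.39 at 55, 63, 70, 77 and 85 min. No later array reached the early range, and the change was -1.46 ± 0.30 (adjusted p = 0.00177), called in each of the 15 alternatives. In the same window it was -1.04 ± 0.49 in peroxide II (adjusted p = 0.153), -1.08 ± 0.49 in menadione II (adjusted p = 0.208) and -0.65 ± 0.47 in menadione I (adjusted p = 0.582). In peroxide II the early levels, 0.08, 0.67, 1.55 and 1.23, overlapped with -0.83, -0.40, 0.25 and 0.33.

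EXG1 (YLR300W), the main exoglucanase of the wall, rose in peroxide II. It stood at -0.96, -1.07, -2.67 and -1.38 at 0 to 21 min and at -0.90, -0.22, 0.34 and 0.62 at 56, 63, 70 and 77 min. The lowest later array lay just above the highest early one. The change was 1.48 ± 0.48 (adjusted p = 0.0372), and after 90 min it was 1.56 ± 0.46 (adjusted p = 0.114). Without the 14 min array the first value was 1.10 (adjusted p = 0.158), and on the first scan day alone it was 0.98 (adjusted p = 0.342). It did not pass without the 21, 63, 70 or 77 min array either (adjusted p from 0.0603 to 0.111). In menadione II the change was -0.07 and in peroxide I -0.24, both without a call, and the difference between agents, 1.55 ± 0.68, had an adjusted p of 0.277.

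The other remodelling genes did not pass the test. GAS1, GAS3 and GAS5 belong to a family of enzymes that elongate glucan chains, and their changes ran from -1.36 (GAS1 at 51 to 90 min of peroxide I, adjusted p = 0.0512) to 1.96 (GAS3 at 22 to 50 min of menadione I, where no gene passed). GAS3 at 22 to 50 min of peroxide II, at 1.26 ± 0.38, had an adjusted p of 0.0517. BGL2, a glucan-modifying enzyme of the wall, had a change of -1.17 (adjusted p = 0.0753) at 51 to 90 min of menadione II and of 0.08 in peroxide II. SCW4, a relative of SCW10, had changes from -0.84 to 1.85, with no call.

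TIP1 (YBR067C), a mannoprotein gene of a family known for induction by cold and by low oxygen, fell in 3 courses. In peroxide II it stood at 1.24, 1.58, 0.69 and 0.60 at 0 to 21 min, at 0.39, -1.34, -2.82 and -2.32 at 28 to 49 min and at -2.27, -1.50, -0.65 and -0.37 at 56 to 77 min. Neither later group overlapped with the early one, and by 100 to 180 min levels were again between -0.06 and 1.24. The changes were -2.55 ± 0.54 (adjusted p = 0.00503) and -2.23 ± 0.54 (adjusted p = 0.00575). With scan day as a covariate they were -2.38 (adjusted p = 0.0155) and -1.90 (adjusted p = 0.072). Within the first scan day they were -3.57 (adjusted p = 0.000651) and -2.61 (adjusted p = 0.00506). On the second scan day, with 28 min as its only later array, the first of them was -0.26 (adjusted p = 0.999).

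In menadione II TIP1 stood at -0.10, 0.92, 0.56 and 0.25 early, at -1.03, -1.61, -1.29 and -1.74 at 28 to 49 min, and at -2.38, -2.35, -2.57 and -1.75 at 56 to 85 min. Neither later group overlapped with the early one. The change was -1.82 ± 0.54 (adjusted p = 0.223) in the first of these windows, where no gene passed the test, and -2.67 ± 0.54 (adjusted p = 0.00423) in the second. Low levels lasted beyond 90 min there, with -1.36 at 100 min and -0.82 at 120 min, before 1.40 at 130 min.

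Peroxide I gave TIP1 levels of 1.10, 0.38 and -0.72 at 0, 14 and 20 min, -1.18, -1.50 and -1.57 at 30, 40 and 49 min, and -1.14, -1.67, -1.12, -0.59 and -0.15 at 55 to 85 min. The 77 and 85 min arrays overlapped with the early ones, and those of 30 to 70 min did not. The changes were -1.67 ± 0.37 (adjusted p = 0.0384) and -1.19 ± 0.33 (adjusted p = 0.0171). Neither call held without the 0 min array (-1.24, adjusted p = 0.18, and -0.76, adjusted p = 0.163), without the 14 min array (adjusted p = 0.113 and 0.071), or with the first array of each repeated pair alone (adjusted p = 0.188 and 0.111). The first was also lost without the 40 or the 49 min array (adjusted p = 0.114 and 0.199). The repeated arrays at 20 min differed by 1.53 for TIP1, more than for any other of the 37 genes. Menadione I had 1.35, -0.05 and -0.38 early and -0.07, -1.60, -1.35 and -1.60 at 55 to 85 min, for a change of -1.46 ± 0.51 (adjusted p = 0.169).

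CWP2 (YKL096W-A), an abundant mannoprotein gene, fell in peroxide II. It stood at 0.51, 1.09, 1.14 and 1.08 at 0 to 21 min and at -0.67, -1.08, -0.43 and -0.60 at 56 to 77 min, with no overlap. The change was -1.65 ± 0.39 (adjusted p = 0.00458), and on the first scan day alone -1.50 (adjusted p = 0.0544). In menadione II it was -0.48 (adjusted p = 0.539), with 0.13, 0.32, 0.30 and 0.32 at 56 to 85 min, and the difference between agents was -1.17 ± 0.55 (adjusted p = 0.311). The change was -0.62 in peroxide I (adjusted p = 0.374) and -0.99 in menadione I (adjusted p = 0.516). Its neighbour and relative CWP1 had a change of -1.95 ± 0.68 (adjusted p = 0.0516) in the same window of peroxide II, -1.38 (adjusted p = 0.116) in peroxide I, -0.92 in menadione I and -0.52 in menadione II.

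**Figure D4:**
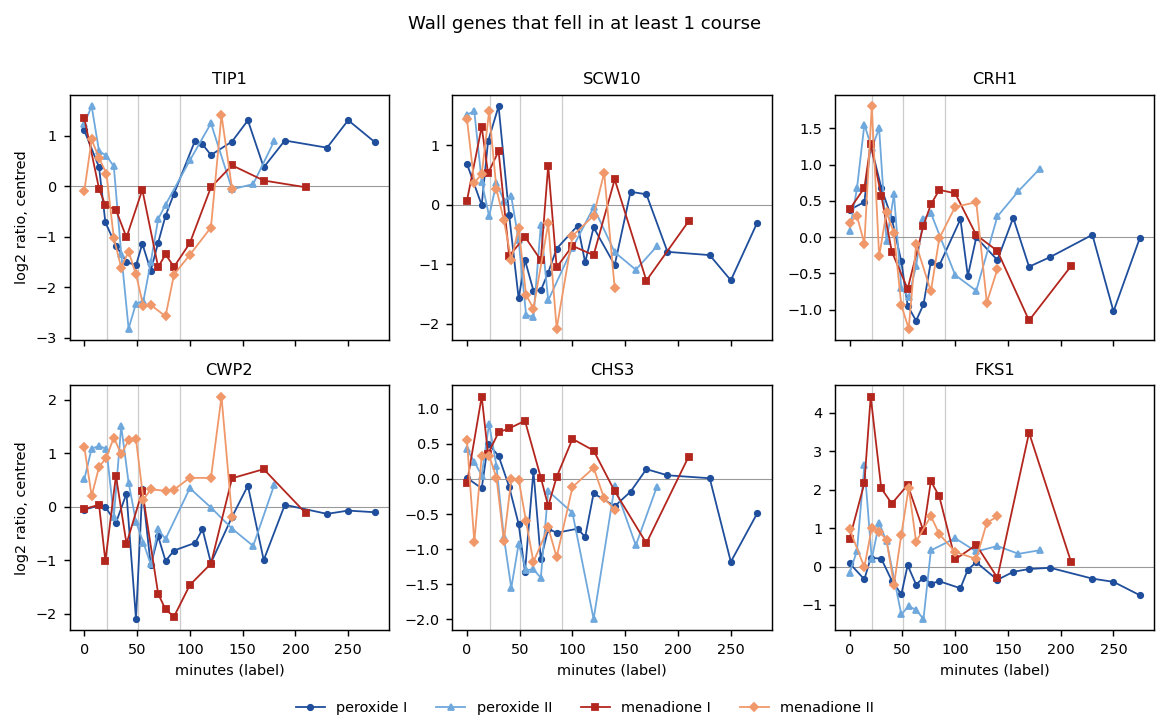
Levels (log2 ratio, centred) of TIP1, SCW10, CRH1, CWP2, CHS3 and FKS1 by labelled minute in the 4 courses; vertical lines mark the ends of the windows. TIP1 was lowest at 42 min in peroxide II (-2.82) and at 77 min in menadione II (-2.57), and the 2 highest FKS1 values belong to menadione I (4.42 and 3.48).

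PST1 (YDR055W), a mannoprotein gene known as a target of Slt2 signalling, rose in menadione I. It stood at -0.90, -2.66 and -3.15 at 0, 14 and 20 min, at 1.72, 2.00, 0.80 and 0.71 at 55, 70, 77 and 85 min, and at 0.43, 0.50, -0.01, 0.82 and 0.42 at 100 to 210 min. Every array from 55 min on lay above every earlier one. The changes were 3.55 ± 0.50 (adjusted p = 0.00124) and 2.67 ± 0.48 (adjusted p = 0.00697). The second did not hold without the 14 min (2.46, adjusted p = 0.0569) or the 20 min array (2.21, adjusted p = 0.0787).

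The step in menadione I lay between 40 and 55 min, from -2.52 to 1.72. In menadione II PST1 sank from 0.18 at 0 min to -4.11 at 28 min, then climbed through -1.99 at 42 min to -0.87 at 49 min. It was back at -2.90 on the 56 min array, and reached -0.33 at 63 min and 1.13 at 77 min, after which it stayed between 0.44 and 1.21. The window means gave 0.85 ± 0.98 (adjusted p = 0.692) at 51 to 90 min and 2.12 ± 0.98 (adjusted p = 0.257) after 90 min, neither of them called, with early arrays from 0.18 to -3.12. In peroxide II the gene was at -1.48 or lower from 28 to 100 min and reached 0.34 only at 180 min.

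One array decides the PST1 changes of peroxide II: the level at 14 min was -6.61, against 0.58, -0.74 and -0.74 at 0, 7 and 21 min. With that array the changes were -0.34, -0.51 and 1.18 in the 3 windows. Without it they were -1.91 (adjusted p = 0.191), -2.09 (adjusted p = 0.0798) and -0.40 (adjusted p = 0.931). In peroxide I PST1 ran from -1.70 at 14 min to -0.06 at 230 min. Its SD over time was at percentile 99.7 of all genes in menadione II, 99.2 in menadione I and 98.7 in peroxide II, and at 61.9 in peroxide I.

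PIR1, PIR3 and HSP150, members of the family of wall proteins with internal repeats, are shown beside PST1 because of their values. None passed the test in the 12 comparisons with all arrays. PIR1 in menadione I stood at -2.46, -2.53 and -2.81 at 20, 30 and 40 min and at 1.03 and 1.41 at 55 and 70 min, and HSP150 at -1.49 at 40 min and 0.91 at 55 min. PIR3 was less regular there, at -1.27 at 40 min and -0.45, 1.52, -0.85 and 0.55 at 55, 70, 77 and 85 min. The PIR1 change at 51 to 90 min was 2.05 ± 0.58 (adjusted p = 0.0873). In menadione II PIR1 went from -2.08 at 56 min and -1.10 at 63 min to 0.65 at 77 min, and PIR3 from -2.60 at 63 min to -0.29 at 77 min. HSP150 showed no such step, at -0.48, -1.09, -0.99 and -0.30 at 56 to 85 min. PIR1 did not stay up: from 100 min on it was between -1.14 and -0.53 in menadione II and between -1.36 and 0.86 in menadione I.

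PIR1 stayed low for longer in the peroxide courses, a description of single arrays with no test. PIR1 in peroxide II was between -3.83 and -2.44 from 21 to 77 min and at -2.05 at 120 min, and it reached -0.18 at 180 min. In peroxide I it was at -3.96 and -3.93 at 49 and 55 min and highest at 190 and 230 min (-0.63 and -0.54). The difference between the agents in PIR1 change at 51 to 90 min was -2.44 ± 0.86 (adjusted p = 0.168). On the first scan day of peroxide II alone the PIR1 change at 22 to 50 min was -2.45 (adjusted p = 0.0353). CIS3, the fourth PIR gene, went the other way in that fit at 1.84 (adjusted p = 0.0353), and at 0.76 (adjusted p = 0.397) with all arrays. PIR1 and PIR3 are relatives of alike sequence, and cross-hybridisation of such genes on these arrays was not tested.

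**Figure D5:**
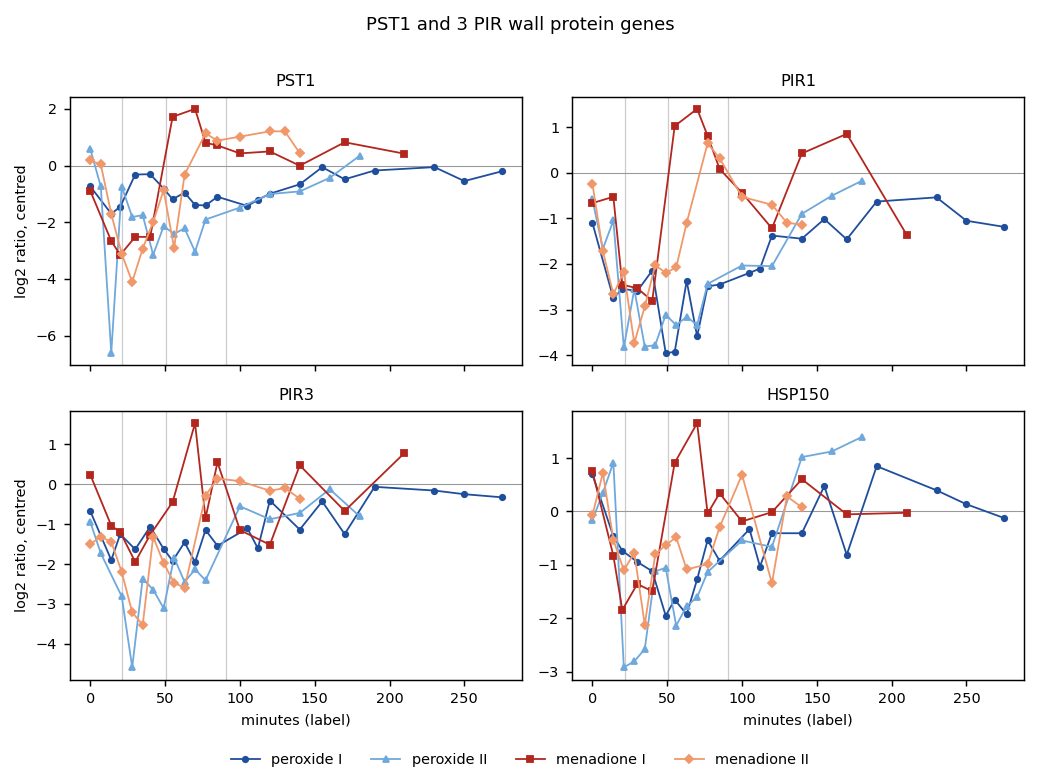
Levels (log2 ratio, centred) of PST1, PIR1, PIR3 and HSP150 by labelled minute in the 4 courses; vertical lines mark the ends of the windows. PST1 and PIR1 step up between 40 and 55 min in menadione I (to 1.72 and 1.03) and by 77 min in menadione II (to 1.13 and 0.65). From 100 min on PIR1 lies between -1.36 and 0.86 in menadione I and between -1.14 and -0.53 in menadione II. In the peroxide courses PIR1 stays below 0 throughout and PST1 is above 0 only at 0 min (0.58) and 180 min (0.34) of peroxide II.

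The remaining wall protein genes were not called. SED1, a mannoprotein gene known from stationary phase, had changes of 1.84 and 1.63 in the last windows of menadione I (adjusted p = 0.259 and 0.334), with its lowest level of -3.29 at 14 min in the baseline. ECM33, a relative of PST1, had changes from -0.52 to 0.77. TIR1, of the TIP1 family, was nearly flat, with an SD over time between percentiles 1.66 and 12.5 of all genes and changes from -0.39 to 0.53. No window of TIR1 passed the test where TIP1 fell. The probes of TIR1 correlated with each other as low as -0.45 in menadione I, -0.21 in the second series and -0.11 in peroxide I. A flat mean need not hold for each probe.

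YPS1 (YLR120C), one of the yapsins, proteases that trim wall proteins, rose in peroxide II. It stood at -0.78, 0.17, 0.67 and -1.99 at 0, 7, 14 and 21 min and at 2.01, 0.22, 1.77 and 0.86 at 56, 63, 70 and 77 min. The 63 min array lay within the early range. The change was 1.70 ± 0.55 (adjusted p = 0.0374), and the call held in 8 of 15 alternatives. It was lost, among others, without the 0, 21, 56 or 70 min array (1.19 to 1.60) and with scan day as a covariate (1.43, adjusted p = 0.22). On the first scan day alone the change was 1.52 (adjusted p = 0.154). In menadione II YPS1 was highest at 0 min (2.09) and lowest at 42 min (-1.22), and the difference between agents at 51 to 90 min was 2.34 ± 0.78 (adjusted p = 0.136). In peroxide I its levels ran from -0.54 at 155 min to 1.03 at 70 min, and in menadione I from 0.38 at 170 min to 1.58 at 55 min. YPS3, a second yapsin, lay between -1.25 and 0.30 in the window comparisons.

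Some genes kept 1 sign in all 4 courses, with no test attached. At 51 to 90 min 11 of the 37 had a negative fitted change in every course (CHS3, CRH1, CWP1, CWP2, GAS1, GSC2, KRE6, MID2, SCW10, TIP1 and WSC3), against 16.8% of all genes. Wall genes are 9 of these 11 and 25 of all 37. A positive change in every course was seen for BAG7 and GAS5, 2 of 37 against 18.4%. At 22 to 50 min 10 were negative throughout (CRH1, FKS1, GSC2, HSP150, PIR1, PIR3, SCW10, SLG1, TIP1 and YPS3, against 10.2%) and 4 positive (CIS3, EXG1, GAS3 and SLT2, against 11.9%). After 90 min 6 were negative (CHS3, CRH1, CWP1, KRE6, MKK2 and SCW10, against 11.7%) and 6 positive (EXG1, GAS3, HSP150, PIR1, PIR3 and PST1, against 13.6%).

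Other genes of the pathway and of the wall were read beside the 37. Of 28 further signalling genes (27 tested in the second series), 1 rose at 22 to 50 min of peroxide II, 1 rose and 1 fell at 51 to 90 min, 1 rose and 1 fell at 51 to 90 min of menadione II, 1 fell after 90 min, and 2 rose at 51 to 90 min of peroxide I. Those of 51 to 90 min are 7.41% of the list in peroxide II, 7.41% in menadione II and 7.14% in peroxide I, against 14%, 5.04% and 15.3% of all genes. The call at 22 to 50 min of peroxide II is 3.70% of the list, against 3.94% of all genes. The call after 90 min of menadione II is 3.70%, against 2.89%. The gene that rose in both windows of peroxide II was PKH1, a kinase that acts on protein kinase C, at 1.33 ± 0.33 (adjusted p = 0.0195) and 1.36 ± 0.33 (adjusted p = 0.0062), named after its values were seen. LRG1, which encodes a GTPase-activating protein for Rho1, fell by 1.77 ± 0.42 (adjusted p = 0.00467) at 51 to 90 min of peroxide II. In the same window of menadione II MID1, of a calcium channel, rose by 1.62 ± 0.39 (adjusted p = 0.012). SWI6, a cofactor of G1 transcription, fell by 3.36 ± 0.86 (adjusted p = 0.0301) after 90 min.

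Of 59 further wall genes (58 tested in the second series), 3 fell at 22 to 50 min of peroxide II. That is 5.17% of the list, against 3.94% of all genes called, of which 1.18% fell. In the window of 51 to 90 min 6 fell and 1 rose in peroxide II (12.1% of the list, against 14% of all genes), 6 fell and 2 rose in peroxide I (13.6%, against 15.3%), 2 fell and 1 rose in menadione II (5.17%, against 5.04%), and 1 rose in menadione I (1.69%, against 1.91%). Of all genes 5.04% fell at 51 to 90 min in peroxide II, 8.72% in peroxide I and 2.87% in menadione II. After 90 min 1 fell and 1 rose in menadione II (3.45%, against 2.89% of all genes). In the same window 1 rose in peroxide I (1.69%, against 0.108%) and 1 rose in menadione I (1.69%, against 1.31%). YGP1, a secreted glycoprotein gene induced in starved cells, rose in all 4 courses at 51 to 90 min: by 4.59 ± 1.00 in peroxide II (adjusted p = 0.00243), 4.68 ± 0.52 in peroxide I (adjusted p = 1.56e-05), 4.03 ± 1.00 in menadione II (adjusted p = 0.0143) and 3.28 ± 0.73 in menadione I (adjusted p = 0.0285). It is also on the general stress list, and DSE2, CTS1 and SCW11 are also on the separation list. The cell separation genes DSE2, CTS1 and SCW11 fell at 51 to 90 min of peroxide II by 4.52 ± 1.20 (adjusted p = 0.0111), 3.74 ± 1.06 (adjusted p = 0.0175) and 1.71 ± 0.51 (adjusted p = 0.024). UTR2, a relative of CRH1 picked out after its values were seen, fell by 1.08 ± 0.33 in peroxide II (adjusted p = 0.0266), by 1.56 ± 0.34 in peroxide I (adjusted p = 0.00254) and by 1.55 ± 0.33 in menadione II (adjusted p = 0.00555).

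Some genes of the cycle and of stress were called in the same windows as the wall genes, and their part in these results was not tested. At 51 to 90 min of peroxide II 17 of 30 general stress genes and 20 of 26 thiol defence genes rose, against 8.99% of all genes. There, 5 of 25 mating pheromone genes and 3 of 14 separation genes fell, against 5.04% of all genes. Of 21 mitotic genes of the CLB2 cluster 3 rose, 14.3% of the list, against 8.99% of all genes that rose and 14% called either way. In that window the median change of the stress list was 1.81 in peroxide II, 2.42 in peroxide I, 1.49 in menadione I and 0.75 in menadione II. The pheromone list had medians of -0.83, -0.39, -0.24 and -0.56 in the same order. The separation list had its lowest mean level at 49 min of peroxide II (-2.59), 55 min of peroxide I (-1.91), 40 min of menadione I (-1.34) and 56 min of menadione II (-2.64). In menadione I it was at -0.20 by 55 min and 0.27 at 70 min, the interval in which PST1, PIR1 and HSP150 stepped up. In menadione II it went from -2.64 at 56 min to -0.42 at 77 min, also as PST1 and PIR1 stepped up. PST1 had already climbed from -4.11 at 28 min to -0.87 at 49 min there, while the separation list sank from -1.65 to -2.19. In peroxide II the separation list was at -1.91 at 77 min and -1.03 at 100 min.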

How the data were processed

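Log ratios from 2-colour arrays were used as the authors deposited them, in 3 tables of 13056 probes (menadione I, 14 arrays), 9984 probes (peroxide I, 23 arrays) and 14976 probes (the second series, 33 arrays). The authors deposited log ratios of the 2 channels, taken here as log2 since no label states the base. Per the labels, Cy5 was the sampled culture and Cy3 the reference; background correction, normalization, log base and spot filter are not given in the sources used here. Probes of a gene were averaged, with symbols from the platform annotation updated to RefSeq names, and each array was centred on its median gene (deposited medians -0.549 to 0.29). Missing spots took 1.2% to 26.9% of an array. Arrays repeated at 20 and 63 min of peroxide I, which correlated at 0.127 and 0.407, were averaged.

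Genes needed a value in 75% of arrays and in 2 arrays of each group compared. Windows were fitted with lmFit and eBayes of limma 3.58.1 under R 4.3.3, 1 mean per window and course, with both courses of the second series in 1 fit and interactions between them. P-values were adjusted over all genes of a comparison. There were 12 window comparisons and 3 interactions. The 2 to 10 arrays of a window limit the precision. The method was tested on simulated data, with noise drawn independently for each array. That noise has no trend between successive times, so the simulation cannot show how the p-values behave where a culture has one. No label pairs the cultures, so the replicate block used the minutes that both courses share.

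The 37 genes and the companion lists were chosen with earlier results of these data known. All members are named; array-by-array values were given for up to 6 members with the largest called change in each comparison and for SLT2, RLM1, RHO1, FKS1, GSC2, CRH1 and PST1. Companion lists name up to 4 genes each, those with the largest called change in the second series. One gene that this rule names is not reported here. By the scan days in the labels, peroxide II falls into a first day of 14 arrays and a second day with the other 3 (14, 21 and 28 min). Menadione II had a day of its own, so day and agent cannot be told apart for levels. Alternatives were no centring, scaling, probe medians, a looser filter, the windows compared alone, scan day as a covariate, the first scan day alone, single arrays of the pairs, the replicate block and leaving out each array. The second scan day alone and all settings for PST1 were added after seeing the data.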

Additional observations from a re-analysis of the deposited data

Results flagged for a closer look

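In 11 of 146 groups of 4 to 10 arrays, over the 13 members described array by array, 1 array stood apart from the others of its window; chance gives about 1 group in 20. In menadione II these were SLT2 at 140 min (-0.71, nearest array -0.35), FKS1 at 42 min (-0.48, nearest 0.70) and CWP2 at 35 min (0.98, nearest 1.24) and 56 min (0.13, nearest 0.30). In peroxide II it was CWP2 at 0 min (0.51, nearest 1.08), which lies in the baseline of its called fall. In peroxide I they were SLT2 at 250 min (-0.46, nearest 0.06), GSC2 at 70 min (0.21, nearest -0.16) and YPS1 at 63 min (-0.30, nearest 0.68). In menadione I they were FKS1 at 170 min (3.48, nearest 0.56) and TIP1 at 55 min (-0.07, nearest -1.35) and 100 min (-1.13, nearest -0.02).

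The BCK1 difference between the agents after 90 min (4.73) passed the test of the difference itself. In the first series, the mean PST1 change at 22 to 50 min was -0.28 in menadione I and 0.82 in peroxide I. That of RLM1 was 0.33 and -0.49 in the same order. The signs were opposite on array designs that differ, and these differences were not tested.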

How the results depend on the processing

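A looser filter and probe medians left every count of called members as it was. Without centring, 1 member was called at 22 to 50 min of peroxide II (0 higher, 1 lower), 2 after 90 min of menadione II and 3 for the difference between agents after 90 min. Centring takes out a shift of the median gene of -0.12 in peroxide I and in peroxide II at 22 to 50 min, and of 0.20 in peroxide II and -0.15 in menadione II after 90 min. With arrays scaled to the same spread the counts after 90 min were 2 in peroxide II, 0 in menadione II and 2 for the difference, and 0 at 22 to 50 min of peroxide I. With the windows compared alone, peroxide II gave 0 at 22 to 50 min and 4 at 51 to 90 min, and peroxide I gave 0 at 22 to 50 min; after 90 min of menadione II 1 member then rose and BCK1 was not called. Scan day as a covariate gave 1 and 2 in these peroxide II windows and 0 for the difference. The first scan day alone gave 3 at 22 to 50 min (TIP1, PIR1 and CIS3, without SLT2), 3 at 51 to 90 min (CIS3 at 1.63 among them) and 1 after 90 min (SCW10 at -2.21), and the second day alone 0 at 22 to 50 min with 31 members tested. The first array of each repeated pair gave 0 at 22 to 50 min of peroxide I. With the replicate block of shared minutes the difference after 90 min gave 0 (BCK1 4.68, the only called result that the block could be run on); the cause of these changes was not tested.

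Leaving out 1 array gave counts of 1 to 4, 4 to 7 and 0 to 0 in the 3 windows of peroxide II, 0 to 0, 2 to 3 and 0 to 1 in menadione II, 0 to 1, 2 to 4 and 0 to 0 in peroxide I, 0 to 0, 1 to 1 and 0 to 1 in menadione I, and 0 to 0, 0 to 0 and 0 to 1 for the differences. The 4 at 22 to 50 min of peroxide II came without the 21 min array and the lowest count at 51 to 90 min without 63 min. No called member changed sign. PST1 in peroxide II, never called, did: at 22 to 50 min it was 0.48 without 0 min, 0.04 without 7 or 21 min and 1.86 on the second scan day; without 14 min it was -1.91. At 51 to 90 min it ran from -2.09 without 14 min to 0.31 without 0 min. After 90 min it ran from -0.40 without 14 min to 2.00 without 0 min, and it was -0.62 on the first scan day. With 2 to 5 times in most windows and 1 culture per course, small changes could not be called.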
